A study of Mus musculus with 8 samples.

Results

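The genes described here encode the heavy and light chains of antibodies, as measured by 16 array probes of 55681. A probe was included if its gene name, in either of the 2 annotation versions under which the slides were scanned, began with Igh (heavy chain), Igk (kappa light chain) or Igl (lambda light chain), leaving out Ighmbp2, Igll1 and names that begin with Iglon. This gave 9 heavy chain probes, 7 kappa probes and 0 lambda probes, each printed on 1 spot per array. By these names, 4 probes belong to constant regions and 13 to variable segments, 1 of them counted under both because the versions disagree.

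RNA abundance was measured on 8 single-colour Agilent arrays, 2 in each of 4 groups. All cells were of the mouse pre-B cell line 1676, of genotype SLP-65-/- LAT-/-, so they lacked 2 adaptor proteins that relay the pre-B cell receptor signal. They were infected with a retroviral control vector or a retroviral vector for hsa-miR-125b-1 and selected with 1 µg/ml puromycin, in medium with 7.5% FCS. The groups were control cells with IL-7, miR-125b cells with IL-7, control cells 24 h after withdrawal of IL-7, and miR-125b cells 24 h after withdrawal, a treatment that the labels describe as a way to induce differentiation. The IL-7 came as supernatant of IL-7-expressing J558L cells. Per the series' design text, the 2 experiments were independent and each used newly generated cell clones. All groups share the double deficiency of adaptors and 1 parental line, and the vector's promoter is not given in the sources used here.

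An antibody heavy chain is made from a variable exon, assembled in each B cell precursor from V, D and J segments, spliced to constant exons: mu first, then delta by alternative splicing, and gamma, alpha or epsilon after class switching. A pre-B cell carries an assembled heavy chain with the surrogate light chain, and rearranges its kappa and then lambda genes when IL-7 signalling falls. Unrearranged V, J and constant segments are also transcribed, as germline transcripts, before they recombine.

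The names alone do not identify the targets. Only 4 of the 16 probes carry an immunoglobulin name in both grid versions, and 9 match a symbol or synonym in the RefSeq gene table. The probes below are the 6 that were bright enough to test, followed by a kappa probe that was bright on 1 array. They are shown because the name, the annotated description and the position differ for several of them. Capitals mark the letters AATAAA, the motif of many polyadenylation signals, searched on the printed strand only, and in Igkv4-72 the longest run shared with another probe of the array. AATAAA occurs in 3 of the 16 probes and in 10.1% of all 55681 probes of the same length.
Ighv14-2: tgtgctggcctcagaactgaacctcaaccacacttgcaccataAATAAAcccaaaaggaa
Ighg: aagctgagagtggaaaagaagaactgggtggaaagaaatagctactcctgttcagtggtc
Igh-VJ558: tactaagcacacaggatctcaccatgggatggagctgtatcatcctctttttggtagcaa
Igh-V3660: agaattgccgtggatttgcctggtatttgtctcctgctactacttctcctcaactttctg
Igkc: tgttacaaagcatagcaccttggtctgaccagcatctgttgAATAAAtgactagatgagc
Igkv4-72: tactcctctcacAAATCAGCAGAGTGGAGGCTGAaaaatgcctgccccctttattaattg
Igkv6-15: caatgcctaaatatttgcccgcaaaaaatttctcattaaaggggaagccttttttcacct

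The probe named Ighv14-2 lies at chr12:114654277-114654336 (mm9, minus strand) and is described in both grid versions as a delta chain constant region, in one of them as its membrane-bound form. It sits 5293 bases from a probe for the mu constant region, so by position and description it reads Ighd, not a variable segment. The probe called Ighg here has that name, for the gamma constant region, only in the grid version used without IL-7; its descriptions are a BALB/c heavy chain mRNA and a gamma 2A-like chain, and it has no position. Igh-VJ558 is described as a heavy chain cDNA, at chr12:116610609-116610667 in one version and at chr12:116597747-116597806 in the other. Igh-V3660 is an expressed sequence tag without a position, named Igh-6 in the other version, an older symbol of the mu constant gene Ighm.

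On the kappa side, Igkc is named for the kappa constant exon in both versions. Its sequence comes from a bone cDNA described as unclassifiable, at chr6:70690489-70690548 (plus strand). That is 13737 bases beyond a second probe, described as the kappa constant region, at chr6:70676692-70676751. Igkv4-72 (chr6:69176852-69176911, minus strand) is called Gm1499 in the other version, a synonym of the same variable gene in RefSeq. It shares 20 or more bases in a row with 5 other probes, all described as kappa variable segments, and the longest shared run is 22 bases. The other 15 probes share no run of that length with any probe.

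Values are log2 of the scanner's processed signal minus log2 of that array's 75th percentile, so 0 is the level of the 75th percentile spot. Testing required a signal marked well above background on each of the 2 arrays in some group. That held for 29811 of all probes and for 6 of these 16. The lowest signals marked well above background lay between -5.34 and -4.72 on this scale. The 75th percentile itself was 325 to 379 signal units with IL-7 and 606 to 722 without. Replicate arrays correlated at 0.994 to 0.996 across probes, and 47.7% to 54.8% of probes were well above background. The arrays with IL-7 share 1 slide and 1 scan and those without IL-7 another, so the effects of withdrawal, slide and scan cannot be told apart. Control and miR-125b arrays lie in different columns of each slide, so vector and position cannot be told apart either. Fewer cells with a transcript and less transcript per cell cannot be told apart in bulk RNA.

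The defining genes of the labelled cell type were present. All 10 pre-B markers chosen (among them Cd79a, Pax5, Vpreb1 and Igll1) were tested and 9 were well above background on all 8 arrays. Of 7 plasma cell markers, 5 were well above background on all 8. Their summed scaled signal was 179 to 200 in control cells with IL-7, 176 to 184 in miR-125b cells with IL-7, 140 to 150 in control cells without and 135 to 147 in miR-125b cells without. The sum of the pre-B markers was also lower without IL-7, at 1050 to 1100 against 1350 to 1410 with it. Jchain, the joining chain of secreted IgM and IgA, was well above background on 2 arrays. Markers of other cells were present in part. Of 9 T and NK cell markers 4 were well above background on all 8 arrays and 4 on none. The summed scaled signal of these markers was 6.19 to 7.58 with IL-7 and 8.39 to 8.80 without. Cd8a, well above background on 4 arrays, had log2 differences on withdrawal of 8.06 in control and 8.63 in miR-125b cells. Its other arrays were not well above background, so the size of these differences is uncertain. Over 4 other scalings they ranged from 4.1 to 8.09 in control and from 4.37 to 8.46 in miR-125b cells. The log2 differences of Cd3e on withdrawal were -1.44 and -1.52. Of 7 myeloid markers 4 were well above background on all 8 arrays, with a sum of 155 to 193. Of 6 stromal markers 4 were well above background on no array. Their part in the results was not tested.

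Withdrawal of IL-7 moved 4 of the 6 tested probes in control cells and 4 in miR-125b cells, in both directions. In each vector 2 rose and 2 fell. Ighv14-2, the delta constant probe, rose in both vectors and Igkv4-72 fell in both. Ighg was called higher in both, but it was tested only because it was bright in miR-125b cells without IL-7, so its calls support nothing by themselves. Igh-V3660 fell in control cells and Igh-VJ558 in miR-125b cells. Over all probes tested, 51.1% were called in control cells (20.8% higher and 30.3% lower) and 49.2% in miR-125b cells (21.2% higher and 28.1% lower), so 4 of 6 is near the background. The split of all calls depends on the scaling: in control cells 6208 were higher and 9038 lower, against 3307 and 14109 when arrays were scaled to their median and 4544 and 14180 under normexp. In miR-125b cells 6309 were higher and 8371 lower, against 3760 and 11532, and 4527 and 14164. A call is a Benjamini-Hochberg adjusted p under 0.05 over 29811 probes in limma, two-sided. The median log2 difference of the 6 probes was 0.07 in control and 0.22 in miR-125b cells, against -0.09 and -0.07 over all probes.

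The delta constant probe, Ighv14-2 by name, was well above background on all 8 arrays. IgD is the second heavy chain class that a maturing B cell makes. With IL-7 the 2 control arrays read 0.64 and 1.00 and the 2 miR-125b arrays 0.88 and 0.66. Without IL-7 the control arrays read 1.75 and 1.59 and the miR-125b arrays 1.46 and 1.32. All 4 arrays without IL-7 were above all 4 with IL-7. In control cells the mean rose from 0.82 ± 0.25 to 1.67 ± 0.11 (SD, n = 2 each), a log2 difference of 0.85 (SE 0.15, adjusted p = 0.00659, limma). In miR-125b cells it rose by 0.62, from 0.77 ± 0.16 to 1.39 ± 0.10 (SE 0.15, adjusted p = 0.0196). The control call was lost in a fit of the 4 control arrays with the replicate number as a block (adjusted p = 0.0589). The miR-125b call was lost under median scaling, where the value was 0.38 (adjusted p = 0.0837), without a dim-probe filter, and when miR-125b with IL-7 replicate 2 or either miR-125b array without IL-7 was left out, with values of 0.51 to 0.69.

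Ighg, described as a gamma heavy chain, was near background throughout. Gamma is a class reached by switching. With IL-7 it read -5.52 and -6.55 in control cells and -7.12 and -6.76 in miR-125b cells, and no array was well above background. Without IL-7 it read -3.96 and -3.72 in control cells, where 1 of 2 arrays was well above background, and -4.90 and -3.62 in miR-125b cells, where both were. Each array without IL-7 read higher than every array with IL-7. Since the groups with IL-7 give only an upper limit, the difference is stated as a bound: at least 2.01-fold higher without IL-7 in control cells and at least 1.64-fold in miR-125b cells. This sets the mean of the bright group against, on each dim array, the higher of its own value and that array's lowest signal well above background.

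Ighg passed the brightness requirement only through miR-125b cells without IL-7, a group in which it is high, so a difference was built into its being tested. The adjusted p was 0.0148 in control cells and 0.00835 in miR-125b cells (limma). Under the normexp background correction, with an offset of 50, the log2 differences were -0.13 and -0.11 and neither was called, so the bounds above hold for the processed signal only. In control cells the call was also lost when IL-7 replicate 2 or either array without IL-7 was left out, at 1.67 to 2.31. A second gamma probe, described as gamma 2C, was not well above background on any array and was not tested.

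Igkv4-72 is a kappa variable gene of family 4. It was well above background on all 8 arrays and had the smallest standard error of the 6. Control arrays read -1.77 and -1.90 with IL-7 and -2.49 and -2.47 without it. The miR-125b arrays read -1.66 and -1.90 with IL-7 and -2.30 and -2.33 without it. No value with IL-7 was as low as any without. The fall was 0.65 in control cells, from -1.83 ± 0.09 to -2.48 ± 0.01 (log2 difference -0.65, SE 0.10, adjusted p = 0.00482, limma), and 0.54 in miR-125b cells, from -1.78 ± 0.17 to -2.32 ± 0.02 (log2 difference -0.54, SE 0.10, adjusted p = 0.0095).

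This fall is relative to the rest of the array. Before scaling, the signal of Igkv4-72 ran from 87.3 to 120.2 units in cells given IL-7 and from 107.6 to 143.6 after withdrawal, so its unscaled brightness did not drop. The difference stayed between -0.98 and -0.58 in control cells and between -0.78 and -0.41 in miR-125b cells under every alternative run, the 4 other scalings included. The call in control cells was lost in the fit of the 4 control arrays with a replicate block (adjusted p = 0.0531). The 5 kappa variable probes that share 20 bases or more with it, among them the segments 1-133 and 2-116, had differences of -0.02 to 0.23 in control cells and none was called.

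Igh-V3660, the tag that the other grid version assigns to Ighm, was dim but above background on 6 arrays. With IL-7 it read -3.84 and -3.58 in control cells and -4.69 and -4.09 in miR-125b cells. Without IL-7 it read -4.83 and -5.27 in control cells, where neither array was well above background, and -4.65 and -4.48 in miR-125b cells. The control values fell with no overlap and the miR-125b values overlapped. In control cells the scaled signal was at least 2.23-fold lower without IL-7, and the fitted difference was -1.34 (SE 0.24, adjusted p = 0.00693, limma). This fall is relative to the rest of the array, and the unscaled signals changed less. They were 23.5 and 27.3 in control cells with IL-7 and 21.2 and 17.2 without. In miR-125b cells the unscaled signals were 14.7 and 20.9 with IL-7 and 26.9 and 32.3 without. In miR-125b cells the fitted difference was -0.18 (SE 0.24, adjusted p = 0.575), and -0.57 under normexp (adjusted p = 0.00212). The difference between these responses was 1.17 (SE 0.35), with an adjusted p of 0.73, so it did not pass. A far brighter probe is described as the mu constant region. On withdrawal that probe differed by 0.01 in control cells (adjusted p = 0.901, limma) and by -0.03 in miR-125b cells (adjusted p = 0.8). With quantile normalization its differences were 0.55 and 0.54.

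Igh-VJ558 is named for the largest family of heavy chain variable segments. With IL-7 its control arrays read -2.71 and -3.09 and its miR-125b arrays -2.30 and -1.52. Without IL-7 the control arrays read -3.40 and -3.70 and the miR-125b arrays -3.42 and -2.69. Within each vector the arrays without IL-7 were below those with it, and replicate 2 was the brighter miR-125b array in both conditions. In miR-125b cells it fell from -1.91 ± 0.55 to -3.06 ± 0.52, a log2 difference of -1.15 (SE 0.35, adjusted p = 0.0389, limma). In control cells the difference was -0.65 (SE 0.35, adjusted p = 0.17), and it was called under normexp (-0.64, adjusted p = 0.00798) and median scaling (-0.98, adjusted p = 0.0324). Its unscaled signals overlapped between conditions, at 77.2 and 124.0 with IL-7 and 62.9 and 112.3 without in miR-125b cells. The call in miR-125b cells was lost under 9 of 18 alternatives. Without miR-125b with IL-7 replicate 2 the difference was -0.76, and without miR-125b without IL-7 replicate 1 it was -0.78.

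Igkc, the probe beyond the kappa constant exon, was uneven between replicates. With IL-7 it read -4.69 and -2.27 in control cells, the second well above background and the first not, and -5.57 and -5.93 in miR-125b cells, both not well above background. Without IL-7 it read -2.77 and -2.62 in control cells, both well above background, and -3.53 and -5.64 in miR-125b cells, where only the first was. Control arrays read higher than miR-125b arrays within each IL-7 condition, without overlap. The spread within groups was as large as 1.71 (SD, n = 2), and no difference passed the test: withdrawal gave 0.79 in control cells (SE 0.95, adjusted p = 0.514, limma) and 1.16 in miR-125b cells (SE 0.95, adjusted p = 0.346).

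The probe described as the kappa constant region itself, which carries only a transcript accession as its name, behaved more evenly. It read 2.61 and 2.74 in control cells with IL-7 and 4.32 and 4.65 without. In miR-125b cells it read 2.61 and 1.87 with IL-7 and 3.83 and 3.56 without. It rose by 1.81 in control cells (SE 0.26, adjusted p = 0.00351, limma) and by 1.46 in miR-125b cells (SE 0.26, adjusted p = 0.00728), and every array without IL-7 was above every array with it. Of the 2 probes, only this one was called on withdrawal.

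The other 10 named probes were not tested. Of these, 8 were not well above background on any array: both probes described as the alpha constant region but named Igh-VJ558, another Igh-VJ558 probe, the gamma 2C probe, both Igkv4-53 probes (1 of them described as a kappa constant region mRNA), Igkv4-55 and Igkv15-97. The other Igh-VJ558 probe, described as a heavy chain cDNA, lies at chr12:114498348-114498407. That is close to the 2 alpha probes, at chr12:114496985-114497044 and chr12:114497090-114497149, and far from the tested Igh-VJ558 probe. Its name may therefore not give its target. The values of these 8 probes lay between -7.62 and -4.37. A probe named Igh-VJ558 and described as a predicted gene (chr12:114507471-114507530) was well above background on 1 array, miR-125b without IL-7 replicate 2, at -4.47. Igkv6-15 was well above background on 1 array, control with IL-7 replicate 2. It read -1.47 there and between -7.33 and -6.34 on the other 7 arrays. The same array gave the only Igkc reading with IL-7 that was well above background. The kappa constant region probe did not stand apart there, at 2.61 and 2.74 on the control arrays with IL-7.

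Expression of miR-125b called none of the 6 tested probes in any of the 3 comparisons of vector. By limma with Benjamini-Hochberg adjustment, 0 of 6 were called with IL-7, where 1.62% of all probes were, 0 of 6 without IL-7, where 4.79% were, and 0 of 6 for the mean over both conditions, where 13.9% were. Below 0.05 before adjustment were 2 of the 6 with IL-7 (Igh-VJ558 and Igh-V3660), 0 without it, and 2 for the mean (Igh-VJ558 and Igkc). Over all 29811 probes the same counts were 5936, 7080 and 9415. At these sample sizes a miss does not show that the vectors were alike.

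Igkc passed the brightness requirement only through control cells without IL-7, a group in which it is high. A difference between vectors was thus built into its being tested. Of the 4 miR-125b arrays 1 was well above background, so the fitted vector differences of Igkc depend on signals near background. They were -2.27 with IL-7 (SE 0.95, adjusted p = 0.261, limma), -1.89 without (SE 0.95, adjusted p = 0.295) and -2.08 on average (SE 0.67, adjusted p = 0.0963). With IL-7 the miR-125b arrays were at least 2.82-fold lower than the control arrays, of which 1 of 2 was well above background. The average was called under normexp (-0.75, adjusted p = 0.01, limma) and under a mean-variance trend (adjusted p = 0.0288). Without control with IL-7 replicate 1 it was -2.68. Because of how Igkc came to be tested, these calls support nothing by themselves. The kappa constant region probe, 13737 bases away, was lower in miR-125b cells by smaller amounts, with log2 differences of -0.44 with IL-7 and -0.79 without (adjusted p = 0.411 and 0.144, limma).

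Igh-VJ558 was higher in miR-125b cells by 0.99 with IL-7 (SE 0.35, adjusted p = 0.20, limma) and by 0.49 without (SE 0.35, adjusted p = 0.452), values that did not pass. Igh-V3660 differed by -0.68 with IL-7 and 0.49 without (SE 0.24 each, adjusted p = 0.209 and 0.294). The delta constant probe differed by -0.05 and -0.28 (SE 0.15 each, adjusted p = 0.891 and 0.333), Igkv4-72 by 0.05 and 0.17 (SE 0.10 each, adjusted p = 0.813 and 0.399), and Ighg by -0.91 and -0.42 (SE 0.50 each, adjusted p = 0.379 and 0.67). A test of whether the vectors responded differently to withdrawal (limma) called 0 of 6 probes and 0.0% of all probes, with 1716 of 29811 below 0.05 before adjustment. Of the 6, Igh-V3660 alone was below 0.05 before adjustment.

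Genes of V(D)J recombination moved in both directions. Rag1 and Rag2, which together cut the V, D and J segments, rose on withdrawal by 2.89 and 1.98 in control cells (SE 0.28 and 0.26, adjusted p = 0.00185 and 0.0028, limma) and by 2.19 and 1.33 in miR-125b cells (SE 0.28 and 0.26, adjusted p = 0.00317 and 0.00955). Of the 15 V(D)J recombination genes tested, 6 rose and 5 fell in control cells, and 6 rose and 4 fell in miR-125b cells, where 51.1% and 49.2% of all probes were called. Dntt, which adds nucleotides at the joints, fell in both, and Polm, a polymerase that fills light chain joints, rose in both. Irf4, a factor that acts at the kappa and lambda enhancers, rose by 1.53 (SE 0.12, adjusted p = 0.00148) and 1.40 (SE 0.12, adjusted p = 0.00199). Of 20 enhancer and promoter factors, 7 rose and 2 fell in control cells, and 7 rose and 0 fell in miR-125b cells. These splits depend on the scaling: in control cells 15 factors rose and 0 fell with quantile normalization, and 2 rose and 3 fell with median scaling. Rag1, Rag2, Polm and Irf4 were called in the same direction in 4 of 4 other scalings in both vectors, and Dntt in 2 of 4.

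The surrogate light chain pairs with the heavy chain before a light chain exists. Of its genes and the signal chains Cd79a and Cd79b, 3 of 6 fell in control cells and 5 of 6 in miR-125b cells. Over all probes tested, 20.8% were called higher and 30.3% lower in control cells. In miR-125b cells these shares were 21.2% and 28.1%. Vpreb1 fell by 0.64 in control cells and by 0.59 in miR-125b cells on the log2 scale (adjusted p = 0.00354 and 0.00497, limma), and Igll1 fell by 0.36 and by 0.35 (adjusted p = 0.00964 and 0.0115). These falls depend on the scaling: with quantile normalization 3 of the 6 rose and 0 fell in control cells, and the Vpreb1 difference ranged from -0.97 to 0.11 over 4 other scalings. Of 8 tested antibody secretion genes, 1 rose and 5 fell in control cells (1 and 1 with quantile normalization), and 1 rose and 6 fell in miR-125b cells (1 and 2). Prdm1 rose by 0.56 and 0.54 and Sdc1, a plasma cell surface proteoglycan, fell by 1.64 in both (adjusted p = 0.00694 and 0.00766). Among the 7 tested genes of class switching and somatic mutation, 1 rose and 3 fell in control cells, and 2 rose and 3 fell in miR-125b cells. With quantile normalization 2 rose and 1 fell in control cells and 3 rose and 2 fell in miR-125b cells, and with median scaling 1 rose and 5 fell, and 0 rose and 5 fell. In the vector comparisons 0 of the 6 surrogate light chain and signal chain genes were called, with or without IL-7. For the mean over both conditions, 2 of 15 V(D)J recombination genes were called higher and 4 lower, where 13.9% of all probes were called. With median scaling it was 2 and 0. The 2 higher were Rag2 (0.96, adjusted p = 0.0266, limma) and Dntt (0.68, adjusted p = 0.0145). Without IL-7, 1 V(D)J recombination gene was called lower and 1 class switching gene higher, where 4.79% of all probes were called.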

How the data were processed

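Each array's scanner output was deposited with a background-subtracted intensity per spot, linear per the file headers and without scaling across arrays, and with 0 or 1 quality marks (other). Software was Agilent Feature Extraction, version 10.7.3.1 in the headers of the slide with IL-7 and 10.7.1.1 in those of the other slide, while only 10.7.1.1 appears in the submitters' processing notes. The authors also deposited intensity values whose 8 columns share one distribution; they served as an alternative. Per the labels, labelling started from 100 ng of total RNA. Of 62976 spots, 3671 control spots were left out, spots of a probe were averaged, and 58 probes with spots marked not uniform were dropped. The log2 intensity minus the array's log2 75th percentile was fitted with limma 3.58.1 (lmFit, eBayes; R 4.3.3 with the package data.table in version 1.17.8), 4 group means over 8 arrays, with 4 residual degrees of freedom, in 6 comparisons. P-values are two-sided and Benjamini-Hochberg adjusted over 29811 probes. The fit was tested on simulated data. Array number, 2 a group, limits the precision. No columns of other samples were present (0). The members and gene lists were chosen with earlier results of these data known. Named were every constant-region probe, and of the variable probes up to 12 per locus that were called in any comparison, filled up to 4 per locus with the largest differences; companion genes were represented by the tested probe with the highest mean over 8 arrays, named by RefSeq accession, symbol or synonym. Coordinates are as the files print them (mm9). Alternatives were normexp, quantile and median scaling, the deposited values, 2 filters, a variance trend, a replicate block, 1 probe per gene name, only the arrays compared, and leaving out each array.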

Additional observations from a re-analysis of the deposited data

How the results depend on the processing

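The count of immunoglobulin probes called on withdrawal was 4 in each vector. In control cells it was 2 of 3 probes tested when every array had to be well above background, and 2 in a fit of the 4 control arrays with a replicate block, an alternative chosen after seeing the data, which lost Ighv14-2 and Igkv4-72. In miR-125b cells it was 2 without a filter on dim probes. Leaving out 1 array gave 3 to 4 in control cells and 2 to 4 in miR-125b cells, the lowest without miR-125b with IL-7 replicate 2 or miR-125b without IL-7 replicate 1. For vector, the count of 0 became 1 without IL-7 under normexp (Igkc), and for the mean 1 under normexp and 2 under a mean-variance trend (Igkc and Igh-VJ558), and 0 to 1 when 1 array was left out. With IL-7 it was 0 under all alternatives. The difference of the withdrawal response was 0 under all. Ighg reversed under normexp, at -0.13 in control cells and -0.11 in miR-125b cells. The mu constant region probe, not called in the report's fit, changed alike in both vectors. In miR-125b cells it went from -0.03 to 0.54 under quantile normalization and 0.55 in the deposited table. In control cells it went from 0.01 to 0.55 and 0.54. It was called in both vectors in these 2 alternatives, and the cause was not tested. In the fit of all 8 arrays, the replicate block gave 4 calls in control cells and 3 in miR-125b cells, where Igh-VJ558 had a difference of -1.15 and an adjusted p of 0.0537 (limma). The replicate numbers are not stated to pair samples, and the replicate differences of 2 groups correlated at -0.106 to 0.111 across probes. With the control numbers crossed, 4 probes were called. When an array is left out its group has 1 sample, assumed to vary like the others. Median scaling moved the median of all probes to -0.42 in control cells and -0.31 in miR-125b cells on withdrawal. Over all probes, not counting fits without 1 array, 0 to 1865 were called for vector with IL-7 (484 in the report's fit), 0 to 3624 without (1429), 850 to 6541 for the mean (4145), 6509 to 18724 for withdrawal in control cells (15246), 9718 to 18691 in miR-125b cells (14680) and 0 to 5 for the difference of responses. Dim signal limits Ighg, Igkc and Igh-V3660: each was not well above background in at least 1 group.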

Other observations

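A further 128 probes are described as immunoglobulin variable or constant regions and lie on chromosomes 6, 12 or 16, but are named by transcript accession and so fall outside the 16; 98 of them were tested. This set was chosen after the files were seen, and so were the probes named from it. The mu constant region probe (chr12:114659630-114659689, mm9) read 7.12 to 7.37 on all 8 arrays. All 3 lambda constant probes, 2 of which overlap, rose on withdrawal in both vectors: at lambda constant 3 (chr16:19065480-19065539) control arrays read -1.01 and -0.69 with IL-7 and 1.52 and 2.03 without, a difference of 2.63 (SE 0.37, adjusted p = 0.00333, limma), and miR-125b arrays read -1.27 and -2.33 with IL-7 and 0.95 and 0.68 without, a difference of 2.62 (SE 0.37, adjusted p = 0.00389). A segment described as heavy variable V1-5 (chr12:115751612-115751671) went from -2.63 and -2.66 to 2.16 and 1.89 in control cells, a rise of 4.67 (SE 0.28, adjusted p = 0.000907), and rose by 4.08 in miR-125b cells (SE 0.28, adjusted p = 0.00141). Of the 23 heavy variable probes tested, 2 rose and 9 fell in control cells and 2 rose and 8 fell in miR-125b cells; of 67 kappa variable probes, 14 rose and 7 fell, and 13 rose and 7 fell. Over all probes 20.8% were higher and 30.3% lower in control cells, and 21.2% and 28.1% in miR-125b cells.

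In cells with IL-7, 4 of the 67 kappa variable probes were lower in miR-125b than in control cells and 0 were higher (limma), where 1.62% of all probes were called in either direction. They are described as the segments 9-124, 14-111, 9-120 and 14-130. Without IL-7, 5 of the 67 were called, all lower, where 4.79% of all probes were called. For the mean over both conditions it was 8 of the 67, all lower, where 13.9% of all probes were called. The probe for 9-124 (chr6:67892237-67892296) read 3.74 and 3.94 in control cells with IL-7, 3.01 and 2.73 in miR-125b cells with IL-7, 3.48 and 3.56 in control cells without IL-7 and 2.29 and 2.40 in miR-125b cells without it. Its difference was -0.97 with IL-7 (SE 0.13, adjusted p = 0.0394, limma) and -1.17 without (SE 0.13, adjusted p = 0.0166). The mean difference over both conditions was -1.10 to -0.99 for these 4 segments. It was called under all 17 alternatives for each, whereas the call with IL-7 was lost for 9-124 under 12 of 18. The 4 segments were named for their calls with IL-7, and the mean includes those values. Its calls are therefore not separate support.

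The heavy variable probes differed between replicates of miR-125b cells. With IL-7, replicate 2 read higher than replicate 1 at 23 of 23 tested probes, with a median difference of 1.21 on the log2 scale, against 0.04 over all probes tested. Without IL-7 it read higher at 17 of 23, with a median of 0.51. In control cells with IL-7, replicate 2 was lower at 20 of 23, with a median of -0.57. Without IL-7 it was lower at 15 of 23, with a median of -0.11. Over all 29811 probes tested, replicate 2 was higher at 17216 in miR-125b cells with IL-7 and at 16525 without. In control cells these counts were 13134 and 16694. At the 67 kappa variable probes, replicate 2 of the miR-125b cells with IL-7 was lower at 58, with a median of -0.42. Without IL-7 it was lower at 55, with a median of -0.21. In control cells replicate 2 was higher at 61 with IL-7 and at 43 without, with medians of 0.26 and 0.10. Igh-VJ558 followed the heavy variable probes, with replicate 2 minus replicate 1 at 0.77 and 0.74 in miR-125b cells with and without IL-7, and -0.38 and -0.30 in control cells. Per the design text, each repetition used newly generated cell clones. Whether the replicate numbers mark these repetitions is not stated, and the cause of the replicate differences was not tested.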
